A study of Mus musculus with 2 samples.

Results

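The genes described here are 7 cadherins and 3 catenins of the developing brain, Cdh2, Cdh4, Cdh8, Cdh10, Cdh11, Cdh12, Cdh13, Ctnna2, Ctnnd1 and Ctnnd2. They were chosen by name from both families with their N6-methyladenosine (m6A) site counts in these data already known, so the presence of sites in them is a description and not a finding. A site was counted for a gene when its position lay inside the GENCODE M21 interval of that gene on the same strand of GRCm38. The 10 genes held 451 of the 79355 sites listed for the cerebellum and 1164 of the 188295 listed for the cerebrum, or 1468 of 219409 positions when both lists were joined. Each list came from 1 GLORI library of poly(A)+ RNA, 1 of cerebellum and 1 of cerebrum, at postnatal day 0 (P0) from female F1r tissue that by the study's methods may come from a single animal, where F1r stands for pups of a C57 dam and a PWK sire. GLORI deaminates unmethylated adenosines with glyoxal and nitrite, so that they are read as G, while m6A is still read as A. The lists held 0 methylation levels and 0 read counts, and no second library of either tissue was analysed here. Shares are therefore given with 95% Wilson intervals in brackets, which count each site as independent and hold only the counting error, and no difference between the tissues was tested.

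Classical cadherins are adhesion receptors that bind the same cadherin on a neighbouring cell through their extracellular repeats, and their cytoplasmic tails bind catenins. Beta-catenin sits on the C-terminal part of the tail and recruits alpha-catenin, which links the complex to actin, while catenins of the p120 family bind the tail next to the membrane and hold the cadherin at the cell surface. In the developing brain, cadherins sort neurons into nuclei and layers and shape synapses. The methyltransferase complex that writes m6A prefers the DRACH sequence (R is a purine, D any base but C, H any base but G, and the A is methylated). In mRNA its marks are known to lie mostly in long exons and near stop codons, and exon junction complexes are known to keep methylation low close to splice junctions.

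All 10 genes had at least 1 site in each library, as did 42.9% of the 20715 coding genes in the cerebellum library and 59.7% in the cerebrum library. All 10 also had more sites in the cerebrum library, which was the case for 91.0% of the 12622 coding genes with a site. Neither count sets these genes apart from the rest. The position of the sites was farther from the background, since 7 of the 10 genes had more sites in introns than in exons, against 7.78% of coding genes with a site. That background was not matched for length. By interval length, all of the 10 genes but Ctnnd1 (rank 4810) were among the longest 1394 of the 20715 coding genes. A share among genes of like length was not computed.

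Among the classical type I cadherins, Cdh2 (N-cadherin; chromosome 18, 16588877 to 16809246, minus strand) had 21 sites in the cerebellum library and 84 in the cerebrum library, with 7 positions in both. Cdh4 (R-cadherin; chromosome 2, 179442431 to 179899373, plus strand) had 23 and 48, with 12 in both. The cerebrum list was the longer for both genes, by 4 times for Cdh2 and 2.09 times for Cdh4, against 2.37 times over all sites of the series. The type II cadherins Cdh8, Cdh10, Cdh11 and Cdh12, which are known for their expression in distinct groups of neurons, had 52, 23, 42 and 25 sites in the cerebellum library. In the cerebrum library they had 155, 63, 100 and 48, in the same order of genes. Of the 42 cerebellum positions of Cdh11, 33 were also listed for the cerebrum. The counts were 25 of 52 in Cdh8, 13 of 23 in Cdh10 and 11 of 25 in Cdh12, against 60.8% over the series. In exons alone Cdh11 did not stand out. There the shares were 80.6% in Cdh11, 81.2% in Cdh10, 73.5% in Cdh8 and 69.2% in Cdh12, against 72.8% over the series. Cdh13 (T-cadherin), which has no cytoplasmic tail and is held in the membrane by a lipid anchor, had 16 and 55 sites and not 1 position in common.

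Of the catenins, Ctnna2 (alpha-N-catenin, the neural alpha-catenin; chromosome 6, 76881637 to 77979699, minus strand) had the most sites of the 10 genes, 160 in the cerebellum library and 362 in the cerebrum library. Only 22 of its 500 joined positions were in both lists. Ctnnd2 (delta-catenin, a neural relative of p120-catenin; chromosome 15, 30172593 to 31029341, plus strand) followed with 70 and 212 sites and 9 in both. Ctnnd1 (p120-catenin; chromosome 2, 84600071 to 84650765, minus strand) is the shortest of the 10 genes and had the fewest joined positions, 19 and 37 sites with 15 in both. The catenins thus spanned both ends of the range, and the order followed the sites in introns rather than those in exons.

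**Figure D1:**
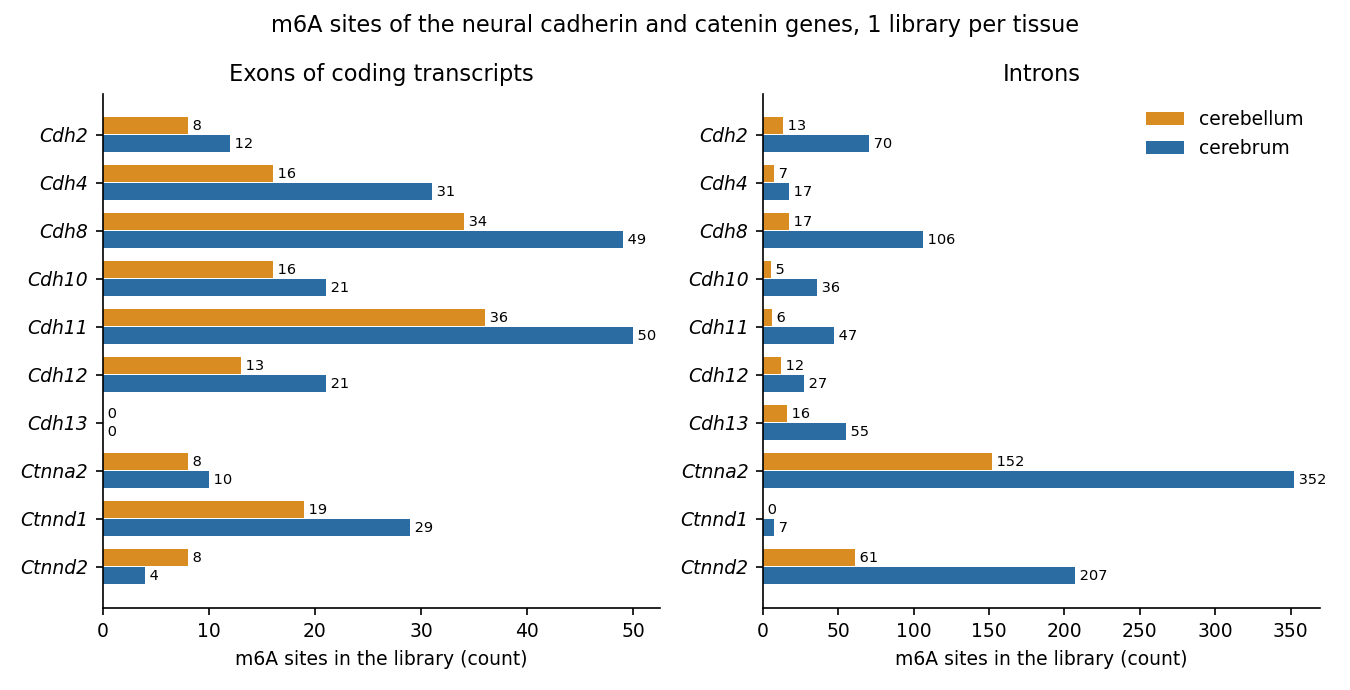
Number of m6A sites listed for each gene in exons of coding transcripts (left) and in introns (right), with 1 bar per library and the count printed at its end; the axes of the panels differ. Exonic counts reached 50 (Cdh11, cerebrum) and intronic counts 352 (Ctnna2, cerebrum), Cdh13 had 0 exonic sites, and Ctnnd2 was the 1 gene with more exonic sites in the cerebellum library (8 against 4).

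The tissue labels were checked on marker genes, of which only the presence of sites can be read. All 13 forebrain genes had a site in the cerebrum library and 5 of 13 in the cerebellum library, with 350 and 42 sites. Of 13 hindbrain genes, 4 had a site in the cerebrum library and 7 in the cerebellum library, with 9 and 47 sites. The cerebrum list was deposited under a name that also carries the study's abbreviation for cerebellum, and the tissue recorded for the sample was used. Sites were also listed in genes of other cell types, in the cerebellum and cerebrum libraries respectively in 3 and 4 of 6 vascular genes, 3 and 6 of 7 meningeal and choroid plexus genes, 3 and 5 of 6 microglial genes and 7 and 7 of 7 genes of the oligodendrocyte lineage. Their part in the sites below was not tested. A site can be missing from a list because the adenosine was not methylated, because too few reads covered it, or because fewer cells of a type were present, and fewer cells and less RNA per cell cannot be told apart.

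Over the 10 genes together, the sites in mature transcripts gathered at the end of the reading frame, though not in every gene. Of the exonic sites, 48 of 158 in the cerebellum library (30.4%, 23.7 to 37.9) and 61 of 227 in the cerebrum library (26.9%, 21.5 to 33.0) lay within 200 nt of the stop codon along the transcript, a window with 109 of the 1157 DRACH adenosines in these transcripts (9.42%). With both lists joined, the window held 4 of 35 exonic sites in Cdh4 and 3 of 33 in Ctnnd1, near the share of the motif. It held 7 of 14 in Cdh2, 16 of 58 in Cdh8, 10 of 24 in Cdh10 and 14 of 57 in Cdh11. In Cdh12, Ctnna2 and Ctnnd2 it held 6 of 25, 5 of 13 and 5 of 9. For each gene with one, the DRACH site in both libraries nearest to its stop codon is shown with 10 nt on either side, because these are the positions both tissues share in that window. Capitals mark the DRACH 5-mer, whose central base is the listed adenosine, and sequences are GRCm38 on the strand of the gene, 5′ to 3′. Cdh13 had no such site, and the sequence of Cdh2 is not printed.
Cdh4, 58 nt before the stop codon, chr2:179895850-179895870: tacttaaaTGACTgggggccc
Cdh8, 67 nt before, chr8:99030622-99030642: tacctcagTGACTggggtccc
Cdh10, 37 nt after, chr15:19013709-19013729: gataaagtTAACTttgcggac
Cdh11, 7 nt before, chr8:102634311-102634331: tttgatgaTGACTcttaacaa
Cdh12, 94 nt before, chr15:21586377-21586397: gccgaccaGGACTatgactat
Ctnna2, 2 nt after, chr6:76882538-76882558: tccttctaGGACAataggcta
Ctnnd1, 65 nt after, chr2:84602817-84602837: ggtgaaatGGACTgatgattt
Ctnnd2, 46 nt before, chr15:31027616-31027636: agtgaactGAACTatgaaacg

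The last exon held most of the exonic sites of the 9 genes that had any. In Cdh2 it held 10 of 14 sites, all of them DRACH, 3 in the coding sequence (CDS) and 7 in the 3′ UTR. In Cdh4 it held 27 of 35, of which 24 were spread along the 3′ UTR from 129 to 3085 nt past the stop codon. Cdh11 had 33 of 57 exonic sites there and Cdh8 30 of 58, both divided between the CDS end (15 and 12 sites) and the 3′ UTR (18 in each). Cdh10 had 15 of 24 and Cdh12 15 of 25 in the last exon. Ctnna2 had 9 of its 13 exonic sites there, from 54 nt before the stop codon on. In Ctnnd2 it held 6 of 9, 3 in the CDS and 3 in the 3′ UTR. Ctnnd1 had 24 of 33 there, all in the 3′ UTR, which makes up nearly all of its last exon. Ctnnd1 shares its 3′ exons with the overlapping coding gene model Gm28635 on the same strand, which covers 25 of its exonic sites, and the transcripts behind those sites cannot be told apart.

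A further group of sites lay in the early exons of the type II cadherins, in the end of the 5′ UTR and the early CDS. That part of the CDS encodes the signal peptide, the propeptide and the start of the extracellular part. Cdh8 had 10 sites in exon 2 (452 nt long), 5 in the 5′ UTR and 5 in the CDS, with 8 in both libraries. Its densest stretch of 100 nt lay there across the start codon, with 6 sites between 2411 and 2339 nt before the stop codon. All 6 were listed for both tissues. Cdh11 had 9 sites in exon 4, all in the CDS. Cdh10 had 6 in exon 2, 2 of them in the 5′ UTR, and Cdh12 5 in exon 3, 1 of them in the 5′ UTR. The type I cadherins differed in this respect, with 1 site of Cdh2 in exon 3 and 2 of Cdh4 in exon 5 as the first in their CDS. In the p120-related Ctnnd1, exons 6 and 7 held 3 sites each, whereas the first listed site in the CDS of Ctnnd2 was in exon 12. The 5′ UTR carried few sites in any gene: 8 of the 14 listed were in Cdh8, and 2 each in Cdh10 and Ctnnd1.

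**Figure D2:**
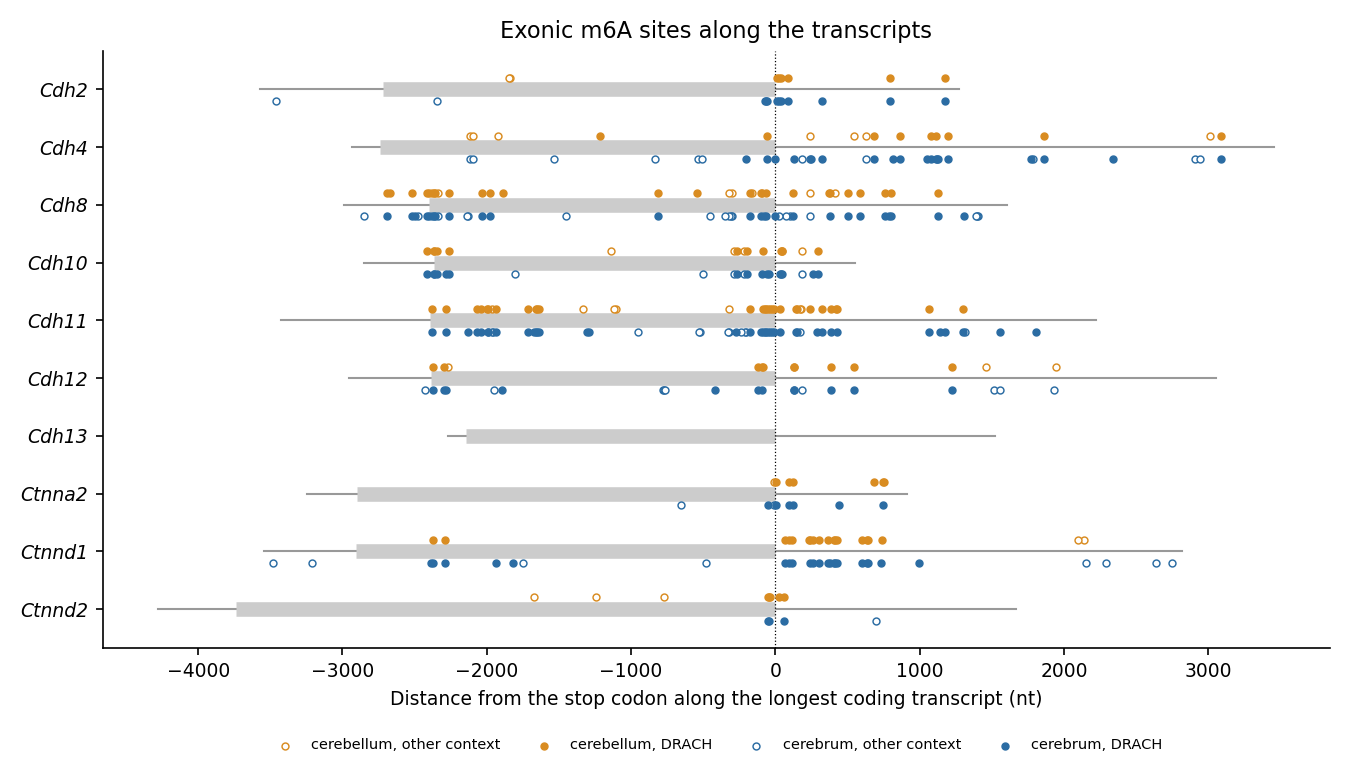
Exonic sites along the longest coding transcript of each gene, in nt from the stop codon (dotted line), with the CDS as a thick bar and the UTRs as thin lines; points above the bar are cerebellum sites, points below are cerebrum sites, and filled points lie in DRACH. It shows 258 of the 268 exonic sites, the other 10 lying on other isoforms. Sites crowd at the stop codon in most genes, less so in Cdh4 and Ctnnd1. In Cdh8, Cdh10, Cdh11 and Cdh12 they crowd near the start of the CDS as well, and the row of Cdh13 is empty.

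Over all exonic sites, the CDS held 46.2% (38.6 to 54.0) in the cerebellum library and 46.3% (39.9 to 52.8) in the cerebrum library. The 3′ UTR held 49.4% (41.7 to 57.1) and 48.0% (41.6 to 54.5), and the 5′ UTR 4.43% (2.16 to 8.86) and 5.73% (3.38 to 9.55). The DRACH adenosines of these transcripts were divided otherwise, with 59.7% in the CDS, 34.5% in the 3′ UTR and 5.79% in the 5′ UTR. The share of the 3′ UTR was thus above, and that of the CDS below, what the distribution of the motif gives, in both libraries. Among exonic DRACH sites alone, the 3′ UTR held 53.8% and 52.0% and the CDS 40.3% and 43.3%. Over the series, the 3′ UTR held 32899 of 58474 exonic sites in the cerebellum library and 63816 of 118603 in the cerebrum library. The CDS held 23928 and 50945 of them. These series shares lie within the intervals of the 10 genes, so the pattern is not particular to them.

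Within the CDS, distance from the splice junctions separated listed from unlisted adenosines. Of the 359 coding DRACH adenosines within 50 nt of a junction, the cerebellum library listed 3 (0.836%, 0.285 to 2.43) and the cerebrum library 6 (1.67%, 0.768 to 3.60). From 51 to 100 nt the shares were 3.55% and 5.08% of 197. Beyond 100 nt they rose to 19.8% (12.5 to 29.7) and 25.9% (17.6 to 36.4) of the 81 adenosines up to 200 nt away, and to 40.7% (28.7 to 54.0) and 51.9% (38.9 to 64.6) of the 54 farther than 200 nt. Both libraries gave the same order over the 4 classes, and the intervals of the nearest and the farthest class did not overlap in either. The same division appeared by exon length, since internal exons of at most 200 nt had 1.39% and 1.67% of their 360 coding DRACH adenosines listed and longer internal exons 9.40% and 11.5% of 234. In the CDS part of the last exon, which has no junction downstream, the shares were 22.3% (15.1 to 31.8) and 34.0% (25.3 to 44.1) of 94.

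**Figure D3:**
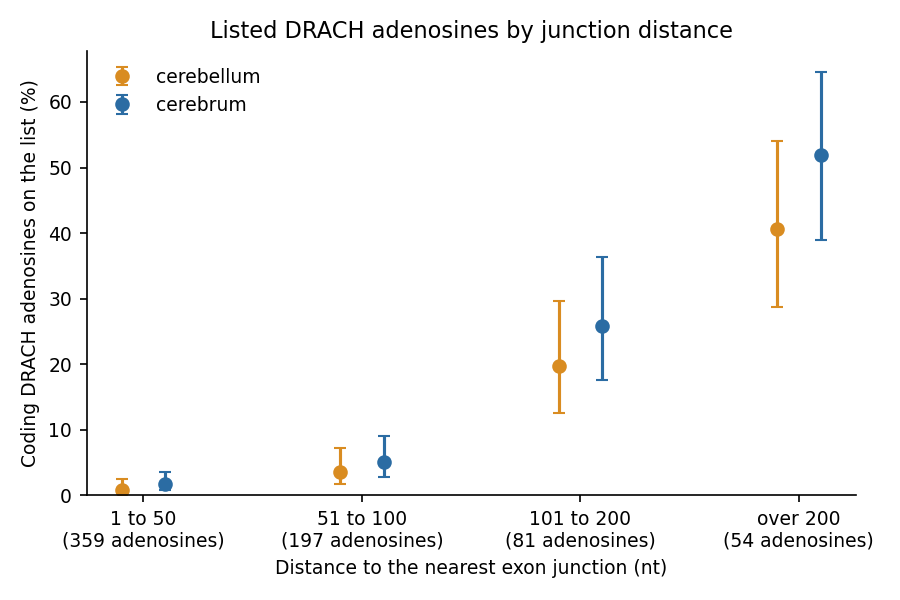
Share of the coding DRACH adenosines of the 10 genes that each library listed as m6A sites, in percent, by distance to the nearest exon junction in nt; points are the shares and bars their 95% Wilson intervals. The shares go from 0.836% and 1.67% within 50 nt to 40.7% and 51.9% beyond 200 nt.

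The genes differed in how much of their DRACH motif was listed. Cdh8 and Cdh11 stood highest, with 23.1% (16.2 to 31.9) of 108 and 22.1% (15.9 to 30.0) of 131 DRACH adenosines in the cerebellum library and 23.1% (16.2 to 31.9) and 28.2% (21.2 to 36.5) in the cerebrum library. Both were above at least 94.3% of the coding genes with a site in either library. Cdh10 had 14.9% and 20.3%, and Ctnnd1 12.6% and 14.8%. Cdh2, Cdh4, Cdh12 and Ctnna2 had between 5.56% and 6.62% in the cerebellum library and between 6.12% and 12.4% in the cerebrum library, so their intervals overlapped one another. Ctnnd2 had 3.81% (1.49 to 9.39) and 2.86% (0.976 to 8.07), near the medians of 3.43% and 4.35% over coding genes with a site. Cdh13 had 0 of 102 in both libraries (upper bound 3.63%). Over the 10 genes the shares were 10.1% (8.5 to 12) and 12.6% (10.8 to 14.7), against 5.52% and 7.31% over all coding genes with a site. These shares depend on coverage, which the lists do not give.

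The cadherins that have a cytoplasmic tail carried sites at some of the same codons of its C-terminal end. In an alignment of the 7 cadherin proteins over 962 columns, 86 columns had a site in the codon of at least 1 gene and 17 had one in at least 2 genes, on the same base of the codon in 15 of the 17. Of the last 35 columns, in the stretch that binds beta-catenin, 11 had a site and 8 of these were shared. In the last exon, 19 of 81 coding DRACH adenosines were listed for the cerebellum (23.5%, 15.6 to 33.8) and 29 for the cerebrum (35.8%, 26.2 to 46.7), whereas the other exons had 25 and 28 of 401 (6.23%, 4.26 to 9.04, and 6.98%, 4.87 to 9.91). Cdh11 had the densest group, 8 sites within the last 100 nt of its CDS, all DRACH and 7 in both libraries, out of 9 DRACH adenosines there. Cdh2, by contrast, had 0 coding DRACH sites in the cerebellum library and 3 in the cerebrum library, all 3 in this stretch. Protein identity over the whole alignment was 67.6% between Cdh2 and Cdh4 and 67.4% between Cdh8 and Cdh11, against 37.0% between Cdh4 and Cdh8. Identity of the tail alone was not computed.

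Sites in 4 genes met at alignment column 932, which had a DRACH adenosine in 4 of the 6 tailed cadherins, and all 4 were listed (Cdh2, Cdh10, Cdh11 and Cdh12). At column 938 the motif was present in 5 and listed in 4, Cdh2, Cdh4, Cdh8 and Cdh11, while Cdh12 was not listed. At column 934 the motif was present in Cdh2, Cdh8 and Cdh12 and listed in all 3. Listed here means in at least 1 library, and at columns 932 and 934 neither library alone listed all of these genes. At columns 6, 141, 293, 928 and 962 the motif was present in 2 genes and listed in both. Some shared columns were listed less fully. The motif was present in 4 genes and listed in 2 at each of columns 930, 940 and 945. It was present in 3 and listed in 2 at column 902, and present in 5 and listed in 2 at column 263. All these columns were picked for having sites in at least 2 genes. Aligned motifs elsewhere were often not listed. Column 827 had a DRACH adenosine in all 6 tailed cadherins, and none was listed. At column 948 the motif was present in Cdh2, Cdh4, Cdh8, Cdh11 and Cdh12 and listed in Cdh11 alone. The sequences at the columns with sites in at least 3 genes are shown to let the aligned motifs be compared. Capitals mark the 5-mer around the listed adenosine, which is the second base of its codon in each.
Cdh10, codon 761, column 932, cerebellum only: ggagaccaAAACTacgattac
Cdh11, codon 768, column 932, both libraries: tcagacctGGACTacgactat
Cdh12, codon 764, column 932, both libraries: gccgaccaGGACTatgactat
Cdh8, codon 774, column 934, cerebrum only: cagaatttTGACTacctcagt
Cdh12, codon 766, column 934, cerebellum only: caggactaTGACTatctatca
Cdh4, codon 895, column 938, both libraries: tacttaaaTGACTgggggccc
Cdh8, codon 778, column 938, both libraries: tacctcagTGACTggggtccc
Cdh11, codon 774, column 938, both libraries: tatctacaGAACTggggacct
The column 938 sites of Cdh4 and Cdh8 are the sites nearest to their stop codons shown above, and the column 932 site of Cdh12 is the one shown for that gene. A shared site was also found outside DRACH, at column 844 of the tail, where Cdh8 (codon 693) and Cdh11 (codon 689) were both listed in both libraries.
Cdh8, column 844: gaattaatGGATTtttacccc
Cdh11, column 844: gcatcaatGGATTtatccctc
How reads that match several paralogs were placed is not given in the sources used here. The p120-related catenins gave no such overlap: Ctnnd1 and Ctnnd2 had 13 columns with a site in an alignment of 1294, none of them shared, at a protein identity of 40.0%.

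**Figure D4:**
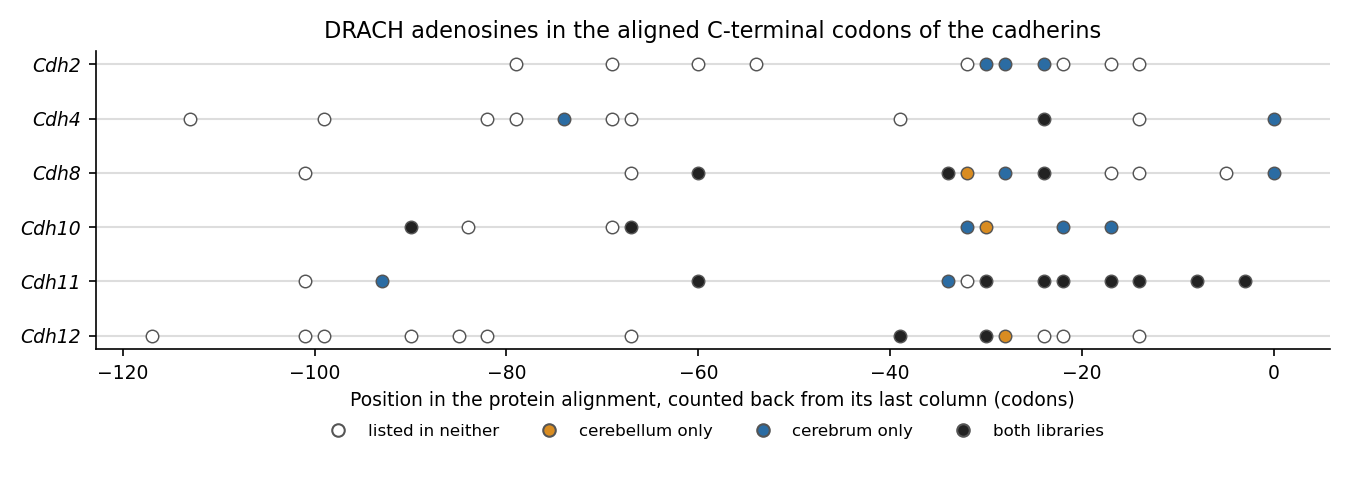
DRACH adenosines in the C-terminal codons of 6 cadherins, placed by alignment column counted back from the last (0); open circles were listed in neither library, orange in the cerebellum only, blue in the cerebrum only and black in both. Listed adenosines of different genes stand above one another within the last 35 columns, and Cdh11 has the most black circles.

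Exonic and intronic sites differed in motif and in how often both libraries listed them. In exons, 117 positions were in both lists, or 74.1% of the cerebellum and 51.5% of the cerebrum sites, against 72.8% and 35.9% over all exonic sites of the series. In introns, 30 positions were in both, 10.4% and 3.25%, against 10.9% and 3.17% over the series. DRACH made up 86.3% (78.9 to 91.4) of the exonic sites in both lists, but 43.9% (29.9 to 59.0) of those in the cerebellum list alone and 44.5% (35.6 to 53.9) of those in the cerebrum list alone. Thus the exonic sites that both tissues shared were more often DRACH than those of 1 tissue. Over all joined positions, DRACH made up 62.7% of exonic and 11.8% of intronic sites in the 10 genes. The series had 61.2% and 11.9%. DRACH shares by sharing were not computed over the series, so the contrast cannot be called particular to these genes. In introns the DRACH share was 40.0% (24.6 to 57.7) of the shared sites, 8.49% (5.68 to 12.5) of the cerebellum-only and 11.9% (9.90 to 14.1) of the cerebrum-only sites. Of the 12 shared intronic DRACH sites, 10 lay in intron 8 of Ctnna2, so the intronic contrast rests largely on 1 intron of 1 gene. The 16 shared exonic sites outside DRACH included 4 in Cdh4, 5 in Cdh8, 3 in Cdh10, 3 in Cdh11 and 1 in Ctnna2.

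Most sites of the 10 genes were intronic. Introns held 289 of 451 sites in the cerebellum library (64.1%, 59.6 to 68.4) and 924 of 1164 in the cerebrum library (79.4%, 77.0 to 81.6), against 16.1% and 23.3% of all sites of the series in introns of coding genes. Per Mb of intron, the 10 genes had 52.0 sites in the cerebellum library and 166 in the cerebrum library. The 2266 coding genes with at least 100 kb of intron had 22.3 and 70.7. The joint density of the 10 genes leaned on Ctnna2, with 152 of the 289 and 352 of the 924 sites, and Ctnnd2, with 61 and 207. Cdh4, Cdh12 and Cdh13 were below the long genes in both libraries, and Ctnnd1 was below them in the cerebellum library. The rest of the 10 genes were above them in both libraries. Genes of like length differed: Ctnna2 (1098.1 kb) had 139 and 322 sites per Mb, while Cdh12 (1140.3 kb) had 10.6 and 23.8 and Cdh13 (1041.2 kb) had 15.4 and 53.0. The shorter Cdh2, Cdh8 and Cdh11 had 60.3, 43.9 and 40.6 in the cerebellum library and 325, 274 and 318 in the cerebrum library. In the cerebrum library these 3 genes were thus close to Ctnna2, and in the cerebellum library they were well below it.

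The intronic sites of Ctnna2 were concentrated in 1 intron. Intron 8 of the longest isoform (chromosome 6, 77143944 to 77605180) is 461 kb long, 42.2% of the intron length of the gene, and held 359 of the 487 intronic sites (73.7%), 128 in the cerebellum library, 248 in the cerebrum library and 17 in both. All 17 shared intronic positions of Ctnna2 lay there. Of these, 10 were DRACH, and 9 of the 10 fell on no exon of another gene in GENCODE or RefSeq. By number of intronic sites Ctnna2 ranked 12 and Ctnnd2 38 of 20715 coding genes, and by length of the gene interval they ranked 45 and 87. The group with the most intronic DRACH sites in the 10 genes lay in the same intron, 7 sites in 411 nt, all in the cerebrum list and 4 of them in both lists. The sequences of these 4 are given because they lie together, among the 12 intronic DRACH positions in both lists. That choice was made after their values were seen.
Ctnna2, chr6:77563791-77563811: ggatagtcTGACTcacaatta
Ctnna2, chr6:77563981-77564001: gtcaagtcGAACTgctttcgt
Ctnna2, chr6:77564014-77564034: cagccaaaAGACAtttctgga
Ctnna2, chr6:77564144-77564164: actggaagTGACTgtaatttc

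Intronic sites of the other genes were spread differently along the gene. In Cdh2, intron 2 (124 kb) held 63 of 82. In Ctnnd2, introns 1 to 3 held 60, 66 and 61 of 262, each at 138 to 159 kb, and in Cdh13 introns 1 and 2 held 29 and 19 of 71. These are long introns, and those named made up 57.5% of the intron length of Cdh2, 18.7%, 17.5% and 16.3% in Ctnnd2, and 21.4% and 16.3% in Cdh13. Cdh8 had its sites toward the other end, 43 of 123 in the 20% of its interval nearest to the 3′ end and 32 in the 20% nearest to the 5′ end. In Cdh11, 27 of 49 intronic sites lay in the 20% of the gene interval nearest to its 5′ end. Cdh12 had 30 of 37 outside the span of its longest coding isoform, in the part of the interval that a noncoding transcript covers, and Ctnnd1 had 0 intronic sites in the cerebellum library and 7 in the cerebrum library. By position, 52 of the 1183 intronic sites of the 10 genes lay on an exon that RefSeq annotates. Just past the 3′ ends, within 5000 nt, 7 of the 10 genes had 0 sites, and Cdh10, Cdh12 and Ctnna2 had 1, 2 and 1.

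**Figure D5:**
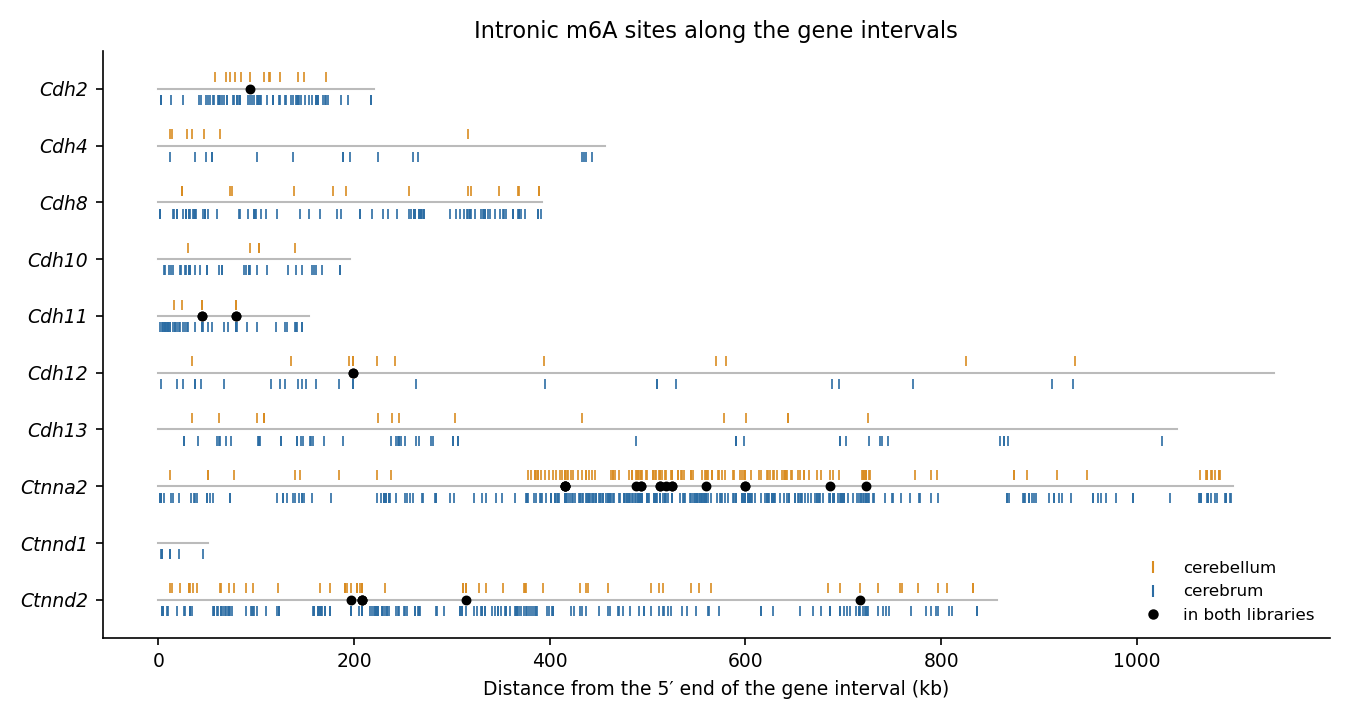
Intronic sites along the interval of each gene in kb from its 5′ end, with orange ticks for the cerebellum library, blue ticks for the cerebrum library and black dots for positions in both. Ctnna2 shows a dense block between about 375 and 737 kb that holds its shared positions, and the ticks of Cdh12 and Cdh13 are sparse over 1140.3 and 1041.2 kb.

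A distance of 6 nt recurred among close intronic sites. Counting all pairs of intronic sites within a gene, 45 were 6 nt apart, against 3 at 5 nt and 5 at 7 nt, and 12 pairs of exonic sites had the same distance. The 45 pairs took in 90 of the 1183 intronic sites (7.61%, 6.23 to 9.26). Of the 45 pairs, 18 had both sites at the A of ATC, 35 had at least 1, and 1 pair included a DRACH site. The trinucleotide ATC held 15.4% (13.4 to 17.6) of the intronic sites of the 10 genes, against 16.0% over all intronic sites of the series, and 2.99% (1.52 to 5.78) of the exonic ones. Its share was 25.4% (16.7 to 36.6) in Cdh13 and 8.54% (4.20 to 16.6) in Cdh2. The members of a pair were in the same list, the cerebrum in 34 pairs and the cerebellum in 16, with 5 pairs in both. The first 4 pairs in genome order on chromosome 6, all in Ctnna2, are printed to show the spacing, with the listed adenosines in capitals.
Ctnna2, cerebellum, chr6:76895634-76895658: agagtgtttAtcaccAtctctgaac
Ctnna2, cerebrum, chr6:77090332-77090356: gaacatgccAtacccAtccttaatt
Ctnna2, cerebellum, chr6:77256008-77256032: ctcctcattAtcaccAtctcccgct
Ctnna2, cerebellum, chr6:77256095-77256119: cctaccatgAtgcttAtccttcctg

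At 6 of the 1468 positions the GRCm38 base on the strand of the site was G, and the authors also called sites on a PWK version of the genome. The 1 exonic case lay in the 3′ UTR of Cdh4, 628 nt past the stop codon, and was in both lists. Read with an adenosine at its centre, its 5-mer would be DRACH, and it is shown with the 5-mer in capitals.
Cdh4, chr2:179896536-179896556: aaatcactGGGCTagcctaac
The other 5 lay in introns, 1 in Cdh11 and 4 in Ctnna2, each in 1 list, and outside DRACH when read the same way. Whether the PWK allele carries A at these positions was not tested.

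The rest of both families was counted for context, and since the 10 genes were picked with their site counts known, a difference in number from the unpicked genes is no finding. Of 28 further cadherin, catenin and associated genes, 16 had a site in the cerebellum library and 21 in the cerebrum library, with 126 and 249 sites, and 36.2% of their 307 joined positions were intronic, against 80.6% in the 10 genes. Ctnnb1 (beta-catenin, the tail-binding partner and Wnt effector) had 6 and 15 sites. Ctnna1, the alpha-catenin of most tissues, had 0 and 7, against 160 and 362 in its neural paralog Ctnna2. Jup (plakoglobin, the junctional relative of beta-catenin) had 0 and 1. Arvcf and Pkp4, both of the p120 family, had 4 and 10 sites and 19 and 38 sites. Arvcf had 0 of its 11 joined positions in introns and Pkp4 23 of 47, so intronic sites were found in the family outside the 10 genes as well. Afdn (afadin, a junctional actin-binding protein), named after its values were seen, had 65 joined positions with 41 in introns, more than Cdh4, Cdh12 and Ctnnd1 in both respects.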

How the data were processed

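The authors ran GLORI-tools on reads mapped to mm10 and to its PWK counterpart, took the union of the sites, and kept those with a methylation rate over 0.1 and a read count over 8. The unit of the deposited lists is a genomic position with its strand, at 1 nt. Depth is unknown.

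Positions were matched to GRCm38 and GENCODE M21, which differs from the release in the study's methods. Exonic sites were assigned to the longest isoform with complete CDS and both UTRs that covers them, then to exons of other transcripts, then to introns. DRACH was read from the genome. Shares carry 95% Wilson intervals. With 1 library per tissue no test was made. Members and lists were chosen with earlier results of these data known. By rule, all 10 genes and Ctnnb1, Ctnna1, Jup, Arvcf and Pkp4 were named, and sequences were printed for a fixed set of sites. Proteins were translated from the chosen isoforms and aligned with mafft 7.526. Site assignment was tested on simulated data. Computations used Python 3.11.15, pandas 2.3.3, scipy 1.17.1, pysam 0.24.0, samtools 1.23.1 and matplotlib 3.10.9. Alternatives changed the motif, isoform, window, repeats, matching and gene assignment. Restricting the shared share to exons and leaving out sites in other genes or on RefSeq exons were chosen after seeing the data.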

Additional observations from a re-analysis of the deposited data

How the results depend on the processing

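Of 56 values recomputed, 40 were classed as unchanged and 16 as moved. Shares were classed by their counting interval. Site totals and the number of genes with more cerebrum sites have no such interval, and were classed as unchanged. The totals did fall. Without sites in another gene on the strand, 399 of 451 cerebellum sites and 1044 of 1164 cerebrum sites were left. Without soft-masked sites, 404 and 963 were left. The share of sites in both lists went from 32.6% of the cerebellum and 12.6% of the cerebrum sites to 74.1% and 51.5% in exons alone, a restriction chosen after seeing the data. The DRACH share, 33.9% and 23.0%, was 28.2% and 18.8% with RRACH, 76.9% in both for sites of both lists, and 25.5% in the cerebrum without soft-masked (repeat) bases. The intronic share, 64.1% and 79.4%, was 20.4% in both for sites of both lists, and 22.2% and 44.0% for DRACH sites. Within 400 nt of the stop codon lay 43.7% and 40.5% of exonic sites, and over 200 nt from a junction 38.4% and 33.3% of CDS sites. With RRACH, 14.9% of the motif's adenosines were listed in the cerebrum. More sites in the cerebrum library were found for 10 genes, for 9 with DRACH sites only (Cdh13 had 4 in each) and for 8 in exons (Cdh13 had none, and Ctnnd2 had more in the cerebellum). No paired analysis was possible because each tissue has 1 library. Without levels, counts or replicates, depth and methylation cannot be told apart in any difference between the lists.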

Other observations

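The dense block of intronic sites in Ctnna2 ended inside intron 8, as a description made after the positions were seen. Segments were cut at the start of the intron and at the annotated ends of a gene within it, so no edge was located from the sites. From the start of the intron, 375 kb from the 5′ end of the gene, to the end of Lrrtm1 at 722 kb, a gene for a synaptic leucine-rich repeat protein that lies in this intron on the opposite strand, the cerebellum library listed 34.0 and the cerebrum library 66.2 sites per 100 kb. Opposite Lrrtm1 itself the values were 46.3 and 59.6. In the remaining 98.7 kb of the intron they were 3.04 and 9.11, close to the introns upstream (2.40 and 16.8) and downstream (5.72 and 15.6). A short isoform of Ctnna2 that ends at 381 kb has its 3′ end near the start of the block. Of the 17 intronic positions listed in both libraries, 16 lay before the end of Lrrtm1 and 1 opposite it.

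Listed coding DRACH adenosines were not spread evenly over the codon. Of the DRACH adenosines at bases 1, 2 and 3 of a codon in the 10 genes, 5.14% (2.73 to 9.48), 10.8% (8.09 to 14.3) and 16.5% (11.1 to 24.0) were listed in at least 1 library. The intervals of bases 1 and 3 did not overlap.

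Of the 16 exonic positions that both libraries listed outside DRACH, 4 had GGATT (2 in Cdh8, 1 in Cdh11 and 1 in Ctnna2) and 2 had GGATA (both in Cdh8).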
